A study of Vitis vinifera with 16 samples.

Results

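Transcripts of 3 enzymes of the cytosolic mevalonate (MVA) pathway were followed in ripening grape berries. They were the 3 isoforms of 3-hydroxy-3-methylglutaryl-CoA reductase (HMGR), 2 acetyl-CoA acetyltransferases (AACT) and 1 farnesyl diphosphate synthase (FPPS). These 6 of the 23984 transcripts in the tables were chosen by their names in the study, to describe how the summed HMGR level passes from one isoform to another. The isoforms were VviHMGR1 (XM_002265602.1, gene LOC100243051), VviHMGR2 (XM_002283147.2, LOC100245191) and VviHMGR3 (XM_002275791.2, LOC100265082). A passage of the study's text gives the name VviHMGR2 to XM_002275791.2, which is called VviHMGR3 throughout here. The acetyltransferases carry no short name in the study and are called AACT-a (XM_002265654.2, LOC100240809) and AACT-b (XM_003635348.1, LOC100855181), and VviFPPS is XM_002272605.2.

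The MVA pathway builds isopentenyl diphosphate, the building block of terpenes, from acetyl-CoA. AACT joins acetyl-CoA units in the entry reaction, HMGR reduces HMG-CoA to mevalonate and is regarded as the main control point of the pathway, and FPPS condenses the products into farnesyl diphosphate. Farnesyl diphosphate feeds sesquiterpenes, sterols and protein prenylation, while the monoterpenes that give Muscat grapes their aroma are made mostly from the plastid MEP pathway. Plants usually carry several HMGR genes, whose transcripts can differ in tissue and stage.

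The berries came from Muscat Blanc à Petits Grains (Vitis vinifera), a white aromatic variety, at 4 stages of the Eichhorn-Lorenz (E-L) scale: E-L31 (pea-sized green berries), E-L35 (onset of ripening), E-L36 (mid-ripening) and E-L38 (harvest). They were sampled in Changli (CL, eastern China) and Gaotai (GT, north-western China) in 2010 and 2011, which gave 8 groups of 2 samples, and the 2 vintages, taken from the same vines, served as replicates. RNA was taken from pooled, deseeded berries, with no treatment in any group. Each region was 1 vineyard, and the GT vines had been planted earlier than those in CL, so region, vineyard and vine age cannot be told apart.

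The 16 samples held 3798921 to 26627006 counted reads, lowest in GT E-L31 2010 and next lowest in CL E-L36 2011 (4698604). The lowest count of any of the 6 transcripts was 24 reads (VviHMGR1 in CL E-L38 2010) and the highest 9781. One sample, GT E-L31 2011, stood apart from its stage. Across all 23984 transcripts, the GT E-L31 2011 profile correlated more closely with CL at E-L35 (r = 0.973) than with CL at E-L31 (r = 0.948). GT E-L31 2010 did the reverse (0.924 and 0.965). Slopes, ratios, the E-L31 comparisons and the changes from E-L31 are also given without GT E-L31 2011. Seed and green-tissue markers could not be checked, since their transcripts carry no names in the sources used. In whole berries, fewer cells of a type and less RNA per cell cannot be told apart.

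VviHMGR1 was abundant in green berries and close to the bottom of the range at harvest. At E-L31 it measured 34.3 and 24.8 RPKM (reads scaled to transcript length and to the mapped reads of the library) in CL in 2010 and 2011, and 52.7 and 21.5 RPKM in GT. At E-L35 it measured 13.2 and 13.3 RPKM in CL and 22.2 and 31.4 RPKM in GT. The next stage brought 0.980 and 3.47 RPKM in CL and 2.38 and 4.60 RPKM in GT. At E-L38 it reached 0.532 and 2.38 RPKM in CL and 1.18 and 1.56 RPKM in GT. All 8 samples of E-L31 and E-L35 thus lay above all 8 samples of the later stages. How many of all transcripts separate the stages in this way was not counted, so the separation does not set VviHMGR1 apart.

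VviHMGR3 followed much the same course at a higher level. It began at 38.0 and 39.2 RPKM in CL and 84.5 and 41.3 RPKM in GT. At E-L35 the values were 20.5 and 28.1 RPKM in CL and 33.6 and 55.8 RPKM in GT. They were 4.26 and 12.9 RPKM (CL) and 8.68 and 15.2 RPKM (GT) at E-L36, and 4.60 and 5.41 RPKM (CL) and 3.10 and 3.71 RPKM (GT) at E-L38. Again the early and late stages did not overlap, with the same limit that the share over all transcripts was not counted. GT E-L31 2010 was more than any other sample at 84.5 RPKM.

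VviHMGR2 behaved otherwise. At E-L31 it stood at 56.8 and 82.0 RPKM in CL but at 33.98 and 31.2 RPKM in GT. At E-L35 it measured 16.02 and 25.1 RPKM in CL and 43.9 and 37.8 RPKM in GT. At E-L36 it measured 20.9 and 18.2 RPKM in CL and 36.9 and 26.7 RPKM in GT. At harvest the values were 23.3 and 41.8 RPKM in CL and 41.2 and 49.6 RPKM in GT. In CL the green berries were highest and the later stages overlapped, whereas in GT the highest value lay at E-L35 in 2010 and at E-L38 in 2011, and both lay above the E-L31 values.

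**Figure D1:**
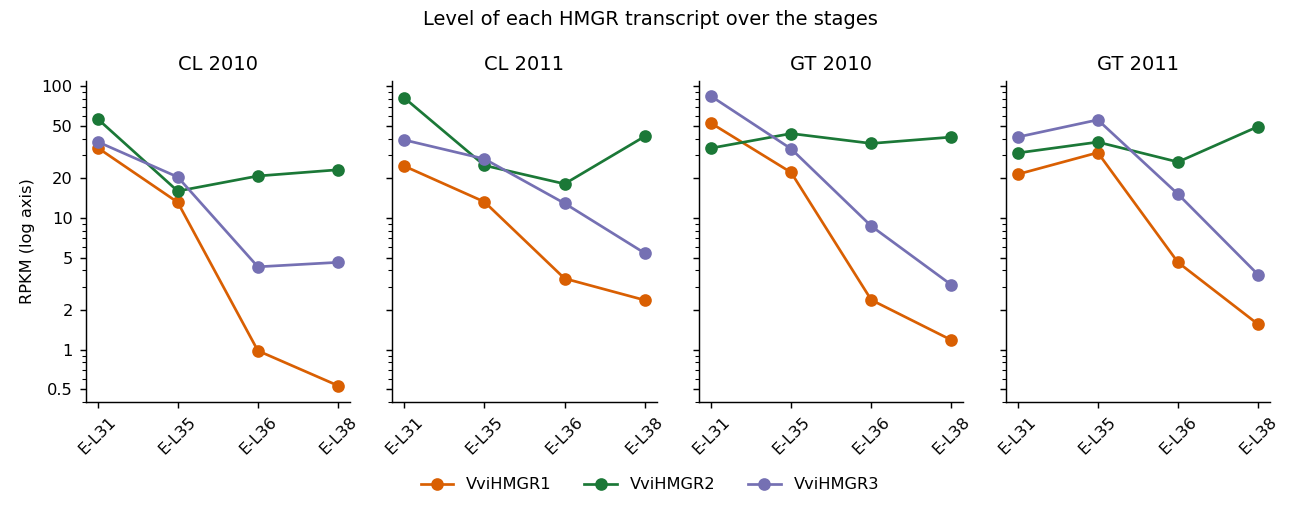
Level of VviHMGR1, VviHMGR2 and VviHMGR3 in RPKM (log axis) over the 4 stages, 1 panel for each region and vintage and 1 point for each sample. VviHMGR1 and VviHMGR3 end lower than they began in all 4 panels, at 0.532 to 2.38 and 3.10 to 5.41 RPKM, though in GT 2011 both are highest at E-L35, while VviHMGR2 ends at 23.3 to 49.6 RPKM.

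The fall over the stages was tested with edgeR as a slope, the log2 change per stage step over the 4 stages, averaged over both regions. The limit for a call was an adjusted p of 0.05 (Benjamini-Hochberg over all 19026 transcripts tested). Of the 6 transcripts 5 were called, where 49.9% of all transcripts tested were, so a called slope by itself sets none of them apart. VviHMGR1 fell by 1.52 per step on the log2 scale (SE 0.155, adjusted p = 7.77e-05 in edgeR), lower than all but 3.48% of the slopes of all transcripts. VviHMGR3 fell by 1.12 per step (SE 0.108, adjusted p = 6.65e-05 in edgeR), and 6.05% of transcripts had a lower slope. The slope of VviHMGR2 was 0.03 (SE 0.0654, adjusted p = 0.757 in edgeR), close to the median slope of all transcripts, 0.000904. Its sign depended on the scaling and was -0.12 when counts were divided by library totals, under which the median slope of all transcripts moved by -0.15. Without GT E-L31 2011 the slopes were -1.58, -1.17 and 0.03 for VviHMGR1, VviHMGR3 and VviHMGR2.

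From E-L31 to E-L38, VviHMGR1 fell by 4.22 and VviHMGR3 by 3.24 on the log2 scale (adjusted p = 0.000165 and 0.000149 in edgeR). These were the 2 of the 6 transcripts that passed both this limit and a 2-fold change, where 27.5% of all transcripts were called. When GT E-L31 2011 was left out, the falls were -4.44 and -3.42. Step by step, 0 of 6 were called from E-L31 to E-L35 (background 4.15%), with 1 at an unadjusted p under 0.05 in edgeR (27.6% of all transcripts) and 0 called by DESeq2 (8.77%). From E-L35 to E-L36 VviHMGR1 was the 1 of 6 called, against a background of 0.436%, and it fell by 2.51 (SE 0.454, adjusted p = 0.0474 in edgeR). That call is weak. It was lost when any of 11 of the 16 samples was left out, with adjusted p values from 0.0151 to 0.255 over all 16, and it was kept only without CL E-L36 2011, either CL E-L38 sample or either GT E-L31 sample. VviHMGR3 gave -1.43 at the same step (adjusted p = 0.0612 in edgeR, 0.00132 in DESeq2) and -1.49 from E-L36 to E-L38 (adjusted p = 0.0609). With GT E-L31 2011 left out, it passed at both steps (adjusted p = 0.0272 and 0.0359 in edgeR). At the last step 0 of 6 were called (background 0.725%), with 2 at an unadjusted p under 0.05 (16.5% of all transcripts), and DESeq2 called 1 (3.28%).

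The summed level of the isoforms, the HMGR total, was therefore smaller in ripe berries. It went from 129 to 28.4 RPKM in CL 2010, from 146 to 49.5 RPKM in CL 2011, from 171 to 45.5 RPKM in GT 2010 and from 94.0 to 54.9 RPKM in GT 2011. The total at harvest was thus 0.220, 0.339, 0.266 and 0.584 times that of green berries. These are ratios of RPKM, which is scaled to the mapped reads of a library. When counts were divided by library totals, the E-L38 over E-L31 values of all transcripts moved by a median of -0.39 on the log2 scale. The size of the fall in RPKM thus depends on the scaling. VviHMGR1 and VviHMGR3 together made up 66.7% of the fall in CL 2010 and 58.3% in CL 2011. In GT they made up 106% in 2010 and 147% in 2011, where the mean VviHMGR2 level was higher at harvest than at E-L31. In GT 2010 this rests on 1 of the 2 harvest libraries, since VviHMGR2 measured 61.3 and 21.2 RPKM in them against 33.98 RPKM at E-L31, and the part was 126% with the one and 91.3% with the other. In GT 2011 it was 213% and 114%. The GT 2011 values, the ratio of 0.584 among them, start from the E-L31 sample that resembled E-L35. Without that sample GT holds only the 2010 values. The total of that sample, 94.0 RPKM, was the lowest at E-L31, and the GT 2011 total was 125 RPKM at E-L35. The 147% thus refers to a fall of 39.1 RPKM from E-L31 to E-L38, the smallest fall of any series. Between those ends the total was lowest at E-L36 in CL 2010 (26.1 RPKM), CL 2011 (34.6 RPKM) and GT 2011 (46.5 RPKM), and in GT 2010 E-L36 and E-L38 lay at 48.0 and 45.5 RPKM.

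What remained at harvest was mostly VviHMGR2. Its share of the HMGR total in RPKM was 44.01% and 56.1% in CL E-L31 in 2010 and 2011, and 19.9% and 33.2% in GT. At E-L35 the shares were 32.2% and 37.7% in CL and 44.02% and 30.2% in GT. They were 79.9% and 52.6% (CL) and 76.9% and 57.4% (GT) at E-L36, and 81.9% and 84.3% (CL) and 90.6% and 90.4% (GT) at E-L38. The median over the 4 samples of a stage went from 38.6% and 35.0% at the early stages to 67.2% and 87.4%. No E-L36 or E-L38 sample except CL E-L36 2011 had a VviHMGR2 share below that of any earlier sample, and that sample (52.6%) lay below CL E-L31 2011 (56.1%).

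The leading isoform changed accordingly. In green berries it was VviHMGR2 in both CL samples and VviHMGR3 in both GT samples, where VviHMGR3 held 49.4% and 43.9% of the total. At E-L35 VviHMGR3 led in 3 of the 4 series of region and vintage and VviHMGR2 in GT 2010. At E-L36 and E-L38 VviHMGR2 led in all 4. VviHMGR1 led in none of the 16 samples, and its share went from 17.0 to 30.8% at E-L31 down to 1.87 to 4.80% at E-L38. The harvest share of VviHMGR3 was 16.2% and 10.9% in CL and 6.81% and 6.75% in GT, so of the remainder most was VviHMGR3.

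**Figure D2:**
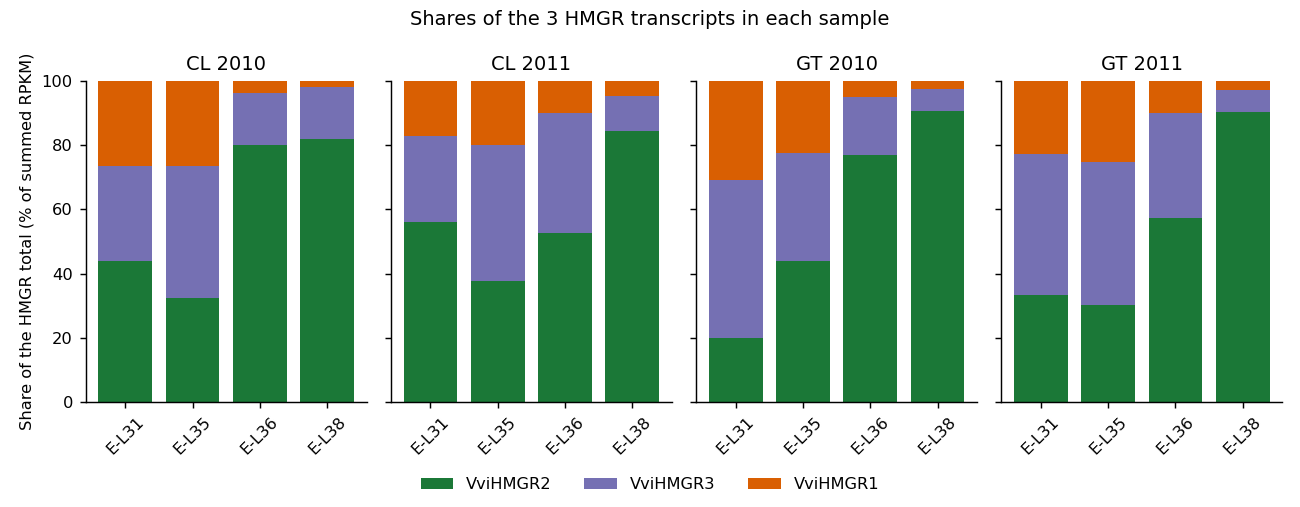
Share of the HMGR total held by each isoform (percent of the summed RPKM) in each of the 16 samples, by stage, region and vintage. VviHMGR2 holds 19.9 to 56.1% at E-L31 and 81.9 to 90.6% at E-L38.

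At mid-ripening the samples divided by vintage and not by region. The VviHMGR2 shares of 2010 were 79.9% in CL and 76.9% in GT, and those of 2011 were 52.6% and 57.4%. VviHMGR3 held 16.3% and 18.1% in 2010 and 37.4% and 32.7% in 2011. The CL 2011 value rests on 365 HMGR reads, and its VviHMGR2 share of those reads was 49.3% (95% Wilson interval 44.2 to 54.4%, counting error only), which did not reach the 77.7% (74.9 to 80.3%) of CL 2010. With 2 samples against 2, no exact test could go below p = 0.33, and the division was noticed in the values, so it stands as a description.

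Shares depend on the unit only a little. Counted as reads with no scaling to transcript length, the VviHMGR2 medians were 36.1, 32.3, 64.4 and 86.5% from E-L31 to E-L38. Uniquely mapped reads equalled all assigned reads in each of the 144 values of the 6 transcripts over the 24 libraries, while over all transcripts 78.6 to 86.2% of reads were unique. No isoform read was thus shared out between the isoforms by the mapping.

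The shift was tested with log2 ratios of isoforms within a sample, which do not depend on the scaling between samples. VviHMGR2 over VviHMGR1 lay between 0.645-fold and 3.30-fold at E-L31 and between 17.6-fold and 43.8-fold at E-L38. Its slope was 1.83 and 0.87 per step on the log2 scale in CL 2010 and 2011 and 2.02 and 1.56 in GT. The mean slope of 1.57 was past the spread of reordered stages (two-sided exact permutation of the stage order within each series, 331776 arrangements, p = 0.000102, adjusted over the 3 ratios 0.000307). All 4 series moved the same way, and the largest single step was from E-L35 to E-L36 in CL 2010, at 4.13.

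VviHMGR2 over VviHMGR3 went from between 0.402-fold and 2.09-fold to between 5.05-fold and 13.4-fold. The slopes were 0.79 and 0.63 in CL and 1.68 and 1.38 in GT, with a mean of 1.12 (exact permutation p = 0.00082, adjusted 0.00123). VviHMGR1 over VviHMGR3 was lower at E-L36 than at E-L35 in all 4 series, with steps of -1.48 to -0.81 on the log2 scale. The next step was upward in 3 series (0.71 in CL 2011, 0.47 in both GT vintages) and -0.99 in CL 2010, and the first step was upward in both GT series (0.08 and 0.11). Its slopes were -1.04 and -0.24 in CL and -0.34 and -0.18 in GT, mean -0.45 (exact permutation p = 0.00359, adjusted 0.00359). This is the least firm of the 3 ratios: with E-L31 left out its slope was -0.47 and the adjusted exact permutation p 0.0694. Without GT E-L31 2011 the 3 mean slopes were 1.77, 1.32 and -0.46.

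In 3 of the 4 series the shift did not begin at the first step. From E-L31 to E-L35 the ratios of VviHMGR2 to both other isoforms went down in CL 2010, CL 2011 and GT 2011, and up only in GT 2010, by 1.61 and 1.70. The downward steps of GT 2011 were small (-0.27 and -0.16) and start from the E-L31 sample that resembled E-L35, so without it GT holds only the upward step. Every later step was up in every series, and the smallest was 0.04, for VviHMGR2 over VviHMGR3 from E-L36 to E-L38 in CL 2010.

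**Figure D3:**
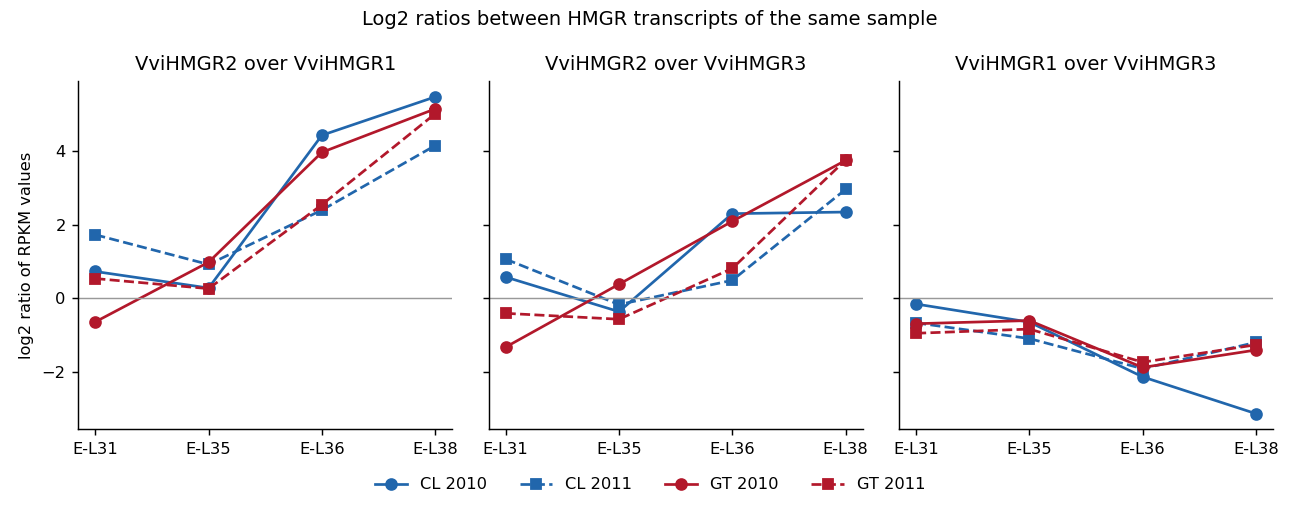
Log2 ratio of VviHMGR2 to VviHMGR1, VviHMGR2 to VviHMGR3 and VviHMGR1 to VviHMGR3 within each sample (vertical axis, log2 of RPKM ratios) against stage, 1 line for each region and vintage. The lines with VviHMGR2 on top end at 4.14 to 5.45 and 2.34 to 3.74, and the lines of VviHMGR1 over VviHMGR3 end at -3.11 to -1.19.

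The study's main question is what differs between the regions. Averaged over the 8 pairs of stage and vintage, the GT minus CL difference in log2 ratio was -0.29 for VviHMGR2 over VviHMGR1, -0.09 for VviHMGR2 over VviHMGR3 and 0.20 for VviHMGR1 over VviHMGR3. None passed the two-sided exact permutation test (256 arrangements, p = 0.359, 0.836 and 0.594, adjusted p = 0.836 for each). When GT E-L31 2011 was left out, the differences were -0.16, 0.11 and 0.26. The average of VviHMGR2 over VviHMGR3 hides opposite ends. At E-L31 this ratio was lower in GT in both vintages (-1.89 and -1.47), and at E-L38 it was higher in both (1.40 and 0.79). VviHMGR2 over VviHMGR1 was also lower in GT at E-L31 (-1.36 and -1.18), but at E-L38 the vintages differed in sign (-0.32 and 0.86). In shares, CL and GT did not overlap at either end, with VviHMGR2 higher in CL in green berries and higher in GT at harvest. Without GT E-L31 2011, the GT side at E-L31 rests on GT E-L31 2010 alone. How often other transcripts separate the regions in this way was not counted.

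At E-L35 and E-L36 all 3 isoforms were higher in GT than in CL in both vintages, by 1.18-fold to 2.74-fold. At E-L35, however, 52.6% of all transcripts were higher in GT in both vintages, and at E-L36 28.5%. The HMGR total was 99.7 and 125 RPKM in GT against 49.7 and 66.5 RPKM in CL at E-L35, and 48.0 and 46.5 against 26.1 and 34.6 RPKM at E-L36, with no overlap at either stage. At E-L31 and E-L38 1 of 3 isoforms was higher in GT in both vintages (backgrounds 21.4% and 24.6%), namely VviHMGR3 and VviHMGR2 in that order.

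In edgeR no isoform passed the test between regions. Of the 6 transcripts 0 were called in GT over CL at E-L31, E-L35, E-L36, E-L38 or over the mean of the stages, against backgrounds of 0%, 0%, 0.021%, 0.00526% and 0.0788%. At an unadjusted p under 0.05 there were 2, 2, 0, 0 and 1 of them, in that order, where 14%, 11.4%, 10.2%, 7.82% and 19.3% of all transcripts were. DESeq2 called 1, 0, 0, 0 and 0, where it called 2.38%, 0.778%, 0.72%, 0.541% and 1.84% of all. The one was VviHMGR2 at E-L31, with a log2 ratio of -1.05 (SE 0.296) and an adjusted p of 0.200 in edgeR and 0.0476 in DESeq2. With GT E-L31 2011 left out, it was -1.09 (adjusted p = 0.294 in edgeR). At E-L35 its ratio was 0.78 in the other direction (adjusted p = 0.377 in edgeR).

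Within the regions, VviHMGR1 and VviHMGR3 fell in both. In CL 3 of 6 were called (VviHMGR1, VviHMGR3 and VviFPPS, background 33.1%), and in GT 3 of 6 (VviHMGR1, VviHMGR3 and AACT-b, background 31.1%). VviHMGR1 fell by 1.45 per step in CL and by 1.58 in GT, and VviHMGR3 by 0.93 and 1.30. Without that E-L31 sample of GT 2011, 5 of 6 were called in each region, all but VviHMGR2 (backgrounds 39.5% in CL and 37.9% in GT), with -1.72 for VviHMGR1 and -1.41 for VviHMGR3 in GT. With all samples, the slope of VviHMGR2 was -0.19 in CL (adjusted p = 0.132 in edgeR) and 0.24 in GT (adjusted p = 0.0688). With library totals the CL slope was -0.33 (adjusted p = 0.0232 in edgeR), and without CL E-L38 2011 it was -0.32 (adjusted p = 0.0478). The GT slope, still 0.24, passed without CL E-L38 2010 or CL E-L38 2011 (adjusted p = 0.0449 and 0.0446 in edgeR), and with library totals it was 0.09. The difference of the slopes themselves was 0.43 for VviHMGR2 (SE 0.131, adjusted p = 0.317 in edgeR). It was called for 0 of the 6 transcripts, with a background of 0.0368%, 2 at an unadjusted p under 0.05 in edgeR (10.7% of all transcripts) and 0 called by DESeq2 (1.53%).

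The first step of VviHMGR2 in CL was near the limit. From E-L31 to E-L35 it gave -1.39 in CL (SE 0.297, adjusted p = 0.0522 in edgeR) and 0.44 in GT (adjusted p = 0.563). Without GT E-L31 2011 the values were -1.39 (adjusted p = 0.0172) and 0.48 (adjusted p = 0.437). In the 8 alternative settings that kept all samples the CL value had adjusted p values from 0.00076 to 0.0493, among them the fit with vintage as replicate block. The contrast between these steps, added after the values were seen, was 1.83 (SE 0.417, adjusted p = 0.547 in edgeR). DESeq2 gave 1.84 and an adjusted p of 0.0229, where it called 0.436% of all transcripts.

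AACT stood above HMGR and FPPS at every stage. AACT-a, the more abundant, measured 224 and 227 RPKM in CL E-L31 in 2010 and 2011, and 175 and 308 RPKM in GT. At harvest it measured 226 and 306 RPKM in CL and 258 and 240 RPKM in GT, with 192 to 301 RPKM at the stages between. AACT-b went from 96.7 and 98.5 RPKM (CL) and 88.8 and 126 RPKM (GT) at E-L31 to 123 and 106 RPKM (CL) and 122 and 130 RPKM (GT), with 90.8 to 149 RPKM between. For both, green and ripe berries overlapped. In all 16 samples AACT-a was first and AACT-b second of the 6 transcripts, and VviHMGR1 was last in every sample except GT E-L31 2010, where VviHMGR2 was. AACT-a made up 61.8 to 74.3% of the AACT sum, a narrower range than that of any HMGR isoform's share of the HMGR total.

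The slopes of both AACT transcripts were small and were called only under some scalings. AACT-b rose by 0.23 per step on the log2 scale (SE 0.0574, adjusted p = 0.00757 in edgeR) and AACT-a by 0.17 (SE 0.0627, adjusted p = 0.0471). With library totals the slopes were 0.08 (adjusted p = 0.186) and 0.02 (adjusted p = 0.794), as the whole distribution moved by -0.15. With vintage as replicate block AACT-a gave 0.17 and an adjusted p of 0.0552 in edgeR. Its call was also lost in 14 of the 16 fits that left out a sample, all but those without CL E-L36 2011 or GT E-L31 2011. The call of AACT-b within GT, where it rose by 0.26 (adjusted p = 0.0340), was lost with library totals (0.10) and without GT E-L31 2010, GT E-L35 2010 or 2011, or GT E-L38 2010 or 2011, with adjusted p values of 0.0513 to 0.179 in edgeR. When GT E-L31 2011 was left out, the slopes over both regions were 0.25 (adjusted p = 0.000737) for AACT-a and 0.29 (adjusted p = 0.00122) for AACT-b.

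VviFPPS fell mildly. It stood at 70.4 and 68.7 RPKM in CL E-L31 in 2010 and 2011 and at 51.5 and 31.3 RPKM in GT. At E-L35 the values were 43.5 and 55.7 RPKM in CL and 32.8 and 33.5 RPKM in GT. They were 24.6 and 29.2 RPKM (CL) and 27.8 and 24.2 RPKM (GT) at E-L36, and 22.1 and 33.9 RPKM (CL) and 22.3 and 23.2 RPKM (GT) at E-L38. Each E-L31 value in CL lay above every later CL value, and the E-L31 and E-L35 samples of GT overlapped. It fell by 0.24 per step on the log2 scale (SE 0.0462, adjusted p = 0.00175 in edgeR), and from E-L31 to E-L38 by 0.70, under the 2-fold limit (adjusted p = 0.00313). With GT E-L31 2011 left out, the slope was -0.27 (adjusted p = 0.000447) and that within GT, -0.13 with all samples (adjusted p = 0.151), was -0.20 (adjusted p = 0.0346).

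Between regions VviFPPS had the lowest adjusted p of the 6 transcripts in edgeR, for a difference under the 2-fold limit of a call. Over the mean of the stages it gave -0.45 on the log2 scale in GT over CL (SE 0.103, adjusted p = 0.0830 in edgeR), lower in GT in 6 of the 8 pairs of stage and vintage. DESeq2 gave an adjusted p of 0.00742 and the edgeR fit with each library as its own value 0.00424, and in each the difference was under 2-fold. The latter fit counts libraries of the same sample as separate replicates, so its p does not measure the spread between samples. At E-L31 VviFPPS gave -0.73 and at E-L35 -0.76 (adjusted p = 0.200 and 0.321 in edgeR). Without GT E-L31 2011 the E-L31 value was -0.49 (adjusted p = 0.419) and the mean -0.39 (adjusted p = 0.103).

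**Figure D4:**
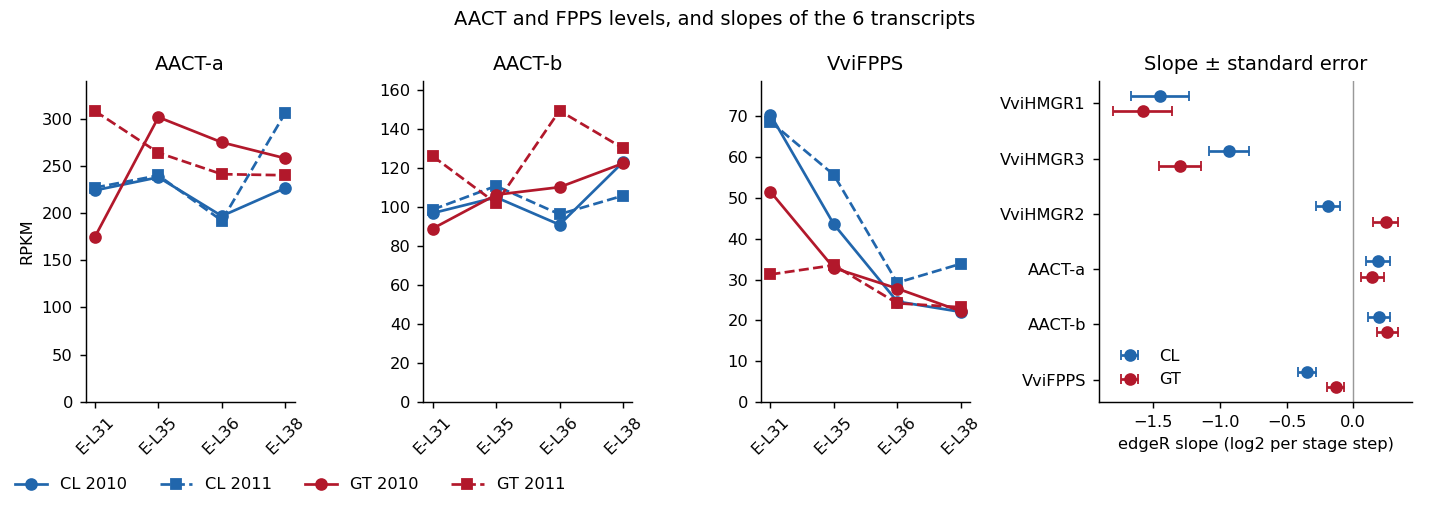
Levels of AACT-a, AACT-b and VviFPPS in RPKM by stage in the 16 samples, with colours for region and markers for vintage, beside the edgeR slopes per stage step (log2, bars for the SE) of all 6 transcripts in each region. The slopes run from -1.58 (VviHMGR1 in GT) to 0.26 (AACT-b in GT).

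Set against each other within a sample, AACT and HMGR moved apart over the stages. The AACT sum was 1.54 to 4.62 times the HMGR total at E-L31 and 2.92 to 6.89 times at E-L35. Between these stages the ratio rose in CL 2010 (2.48 to 6.89), CL 2011 (2.23 to 5.27) and GT 2010 (1.54 to 4.09). In GT 2011 it went from 4.62 to 2.92, starting from the E-L31 sample that resembled E-L35. At E-L36 the AACT sum was 8.02 to 11.01 times the HMGR total and at E-L38 6.74 to 12.3 times. These ratios lay above all early samples but for the E-L38 minimum of 6.74 against the E-L35 maximum of 6.89. The HMGR total over VviFPPS moved less, with 1.83 to 3.32 at E-L31, 1.14 to 3.73 at E-L35, 1.06 to 1.92 at E-L36 and 1.29 to 2.36 at E-L38, and these ranges overlapped.

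At E-L35 and E-L38 each sample had 2 libraries, which gives a view of the spread within a sample. The study's methods describe 2 biological repeats per stage, and the labels do not say which repeat a library came from. Spread between repeats of a vineyard and spread between library preparations thus cannot be told apart. The VviHMGR2 share differed between libraries of a sample by 0.724 to 7.51 percentage points (median 1.83, 8 pairs). The HMGR total was less even. In GT E-L38 2010 it was 67.5 RPKM in one library and 23.5 RPKM in the other, a 2.87-fold difference, and VviHMGR2 measured 61.3 and 21.2 RPKM. The VviHMGR2 share of those libraries was 90.8% and 90.0%. In GT E-L38 2011 the totals were 67.8 and 42.0 RPKM and the shares 89.6% and 91.7%. The small VviHMGR1 share was less even, at 2.95% and 1.57% in GT E-L38 2010 and 3.55% and 1.68% in GT E-L38 2011.

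**Figure D5:**
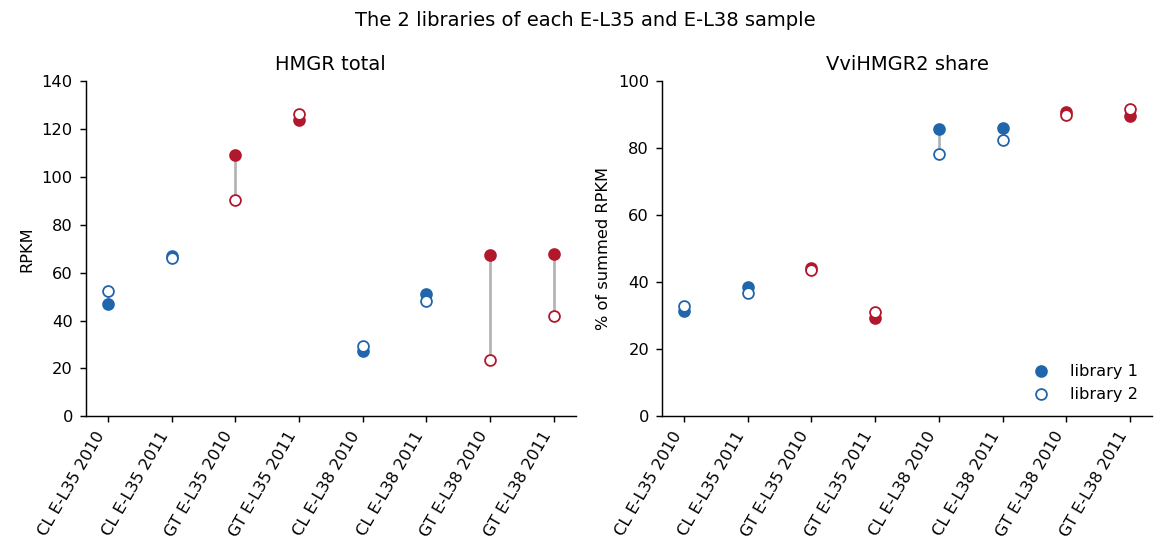
HMGR total in RPKM and VviHMGR2 share in percent for the 2 libraries of each E-L35 and E-L38 sample, joined by lines. The widest pair of totals is GT E-L38 2010 (67.5 and 23.5 RPKM), whose shares are 90.8 and 90.0%.

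VviHMGR1 and VviHMGR3 had nearly the same profile. Over the 16 samples their log2(RPKM + 1) values correlated at r = 0.974, which placed VviHMGR3 at rank 6 for VviHMGR1, and VviHMGR1 at rank 5 for VviHMGR3, among the 16057 transcripts with a mean of at least 1 RPKM. VviHMGR2 correlated with them at 0.303 and 0.186. The acetyltransferases correlated at 0.466 and VviFPPS with VviHMGR1 at 0.779. The samples share stage, so many transcripts that decline with ripening correlate highly, and these values are descriptions.

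The nearest transcripts carry no functional name in the sources used. Nearest to VviHMGR1 were LOC100245906 (r = 0.982), XM_002285396.2 (0.980) and LOC100256970 (0.979). To VviHMGR3 they were LOC100245705 (0.981), LOC100251973 (0.979) and LOC100261416 (0.978). VviHMGR2 had no neighbour of that closeness, with LOC100262283 (0.891), LOC100265498 (0.888) and LOC100266306 (0.887). Those of AACT-a were LOC100246493 (0.922), XM_002281866.1 (0.906) and LOC100260524 (0.905), and those of AACT-b LOC100264085 (0.863), LOC100261242 (0.815) and XM_003631642.1 (0.805). VviFPPS had XM_002275340.2 (0.957), XM_002275368.2 (0.950) and LOC100246805 (0.949).

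The neighbouring branches of terpene synthesis moved in both directions. Of 8 transcripts of the plastid MEP pathway and geranyl diphosphate synthase, 3 rose and 3 fell by slope. Over all transcripts tested 49.9% were called, 4399 upward and 5088 downward, so movement both ways is not particular to this list. The median slope of the 8 was -0.24, against 0.000904 over all transcripts. VviHDR (XM_002284623.2), the last enzyme of the MEP pathway, rose by 0.44 per step (adjusted p = 0.000615 in edgeR), and VviGPPS (XM_002268193.2), which makes the monoterpene precursor, by 0.24 (adjusted p = 0.000466). VviDXS (XM_002277883.2), the entry enzyme, fell by 0.28 (adjusted p = 0.0012 in edgeR). XM_002266889.2, which the study lists apart from VviDXS as DXS-like (VviDXSL4), fell by 0.66 (adjusted p = 0.000205 in edgeR). XM_002282392.2, also listed as DXS-like, rose by 0.17 (adjusted p = 0.0394 in edgeR), so VviDXS and the DXS-like transcripts did not all move together. XM_002271549.1 and XM_002271746.2, also DXS-like, were not called (-0.22 and -0.35). VviDXR (XM_002282725.1), the second enzyme, fell by 0.26 (adjusted p = 0.0015 in edgeR). Of 7 TPS-a transcripts, from the family of sesquiterpene synthases that use farnesyl diphosphate, 2 had enough reads for the test. The slope of 1 of these was called, against the same background of 49.9%. XM_002263544.2 fell by 2.13 (adjusted p = 0.00686 in edgeR), and XM_002283034.1 had a slope of 0.88 (adjusted p = 0.179). The 7 are only those with predicted-transcript (XM) accessions in the study's list, and its other TPS-a members were not analysed here. Other MVA enzymes and the enzymes that lead from farnesyl diphosphate to sterols could not be listed by name.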

How the data were processed

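RNA-seq libraries of deseeded berries (24 libraries, 16 samples) were mapped by the authors with CLC Genomics Workbench to RefSeq mRNAs of Vitis vinifera, with reads of several hits divided in proportion to unique reads. The deposited tables hold counts of all and of uniquely mapped reads, transcript lengths and RPKM, which the authors had scaled to transcript length and mapped reads.

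Counts were summed and RPKM averaged over the libraries of a sample. The 19026 transcripts that reached 10 counts in 2 or more samples were fitted in edgeR 4.0.16 (R 4.3.3, TMM, quasi-likelihood) on the 8 groups, and contrasts other than slopes had to pass 2-fold beside the adjusted p of 0.05. DESeq2 1.42.0 and limma 3.58.1 (on log2(RPKM + 1) and log2(RPKM + 0.1)), library totals, no filter, unique reads, single libraries, a replicate block and leave-outs of each sample were alternatives. The scripts were tested on simulated data.

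A replicate number is a vintage, hence a shared season. Deviations of same-vintage samples correlated at -0.30 to 0.35 over 28 pairs of groups (8 over 0.1). Both vintages were picked from the same vines of each vineyard, per the study's methods, so p-values measure the spread between these repeat samplings in 2 seasons, not between vines. The 6 transcripts, the transcripts nearest to each (3 for each) and the pathway lists were chosen with earlier results of these data known. Gene symbols came from RefSeq (ASM3070453v1), which matched 14054 of 23984 transcripts.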

Additional observations from a re-analysis of the deposited data

Results flagged for a closer look

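In 2 of 40 sets of 4 samples (each level, total and share at each stage) 1 sample lay far from the other 3, by its gap to the nearest divided by the range of the set. Chance gives about 1 in 20 such sets. VviHMGR3 at E-L31 was 84.5 RPKM in GT 2010, with the next value at 41.3 and the lowest at 38.0 RPKM (gap over range 0.930). That sample had the fewest reads, 3798921. VviFPPS at E-L38 was 33.9 RPKM in CL 2011, with the next at 23.2 and the lowest at 22.1 RPKM (0.903), and the libraries of that sample gave 33.3 and 34.4 RPKM.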

How the results depend on the processing

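Of 1152 values recomputed for 52 results, 1043 counted as unchanged, 42 lost a call, 46 gained one and 21 changed sign. Unchanged means the same direction and side of the threshold, also where the main result was not called. The median VviHMGR2 shares had no test and counted as unchanged if they moved by less than the standard deviation of the stage. The both-region slopes of VviHMGR1, VviHMGR3 and VviFPPS kept their calls in all 24 alternatives, and the ratio slopes of VviHMGR2 over VviHMGR1 and over VviHMGR3 in all 20. For the ratios, the alternative with uniquely mapped reads could only repeat the main values, since all reads of these transcripts were unique. The slope of VviHMGR2 was -0.12 with library totals and with limma at either pseudocount, and -0.037 to 0.077 with a sample left out. Its E-L38 over E-L31 value was -0.32, -0.32 and -0.33 in those settings and -0.15 to 0.23 with a sample left out. The AACT-b slope was 0.077, 0.076 and 0.076 in the same settings. AACT-a gave 0.020, 0.027 and 0.027 there, 0.17 with no filter, 0.17 with the vintage as replicate block and 0.10 to 0.25 with a sample left out. The block changed no other slope call. The AACT-a slope in GT was -0.00289 with library totals, and its GT over CL mean was -0.039 to 0.21 with a sample left out. Without E-L31, VviHMGR1 over VviHMGR3 had a slope of -0.47, and the GT minus CL differences of VviHMGR2 over VviHMGR1 and over VviHMGR3 were 0.044 and 0.44. With a sample left out, the GT minus CL difference of VviHMGR2 over VviHMGR3 was -0.30 to 0.17 and that of VviHMGR1 over VviHMGR3 -0.021 to 0.30. The cause of these changes was not tested. Depth limits VviHMGR1 at harvest most, where 1 sample held 24 reads, and 2 vintages per group limit all comparisons within a stage.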
